A study of Mus musculus with 30 samples.

Results

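The 10 genes described here mark microglia, the resident immune cells of the retina, and macrophages. They were chosen by symbol (Aif1, Cx3cr1, Csf1r, Tyrobp, Trem2, Ctss, Cd68, Lyz2, Itgam and Ptprc) out of 12393 genes that the array measured with a probe set of a single gene. All 10 were measured, by 14 of the 22690 probe sets, and for a gene with several probe sets the brightest on average stood for the gene.

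Total RNA of 1 retina from each of 30 mouse pups was hybridised to 30 arrays, in 10 groups of 3. Oxygen-induced retinopathy (OIR) is a model of retinopathy of prematurity: pups breathe 75% oxygen for 5 days from postnatal day 7 (P7), lose retinal capillaries, and become hypoxic in the retina when they return to room air. Of the 9 OIR groups, 4 were injected into the vitreous at P5, before oxygen, with 100000 endothelial colony-forming cells together with 10000 CD34+ progenitor cells (P5 combination, 110000 cells), with 100000 endothelial colony-forming cells (P5 ECFC), with 10000 CD34+ cells (P5 CD34) or with saline (P5 saline). Another 4 received the same at P12, on return to room air (P12 combination, P12 ECFC, P12 CD34 and P12 saline), and 1 went through oxygen without an injection (untreated OIR). The last group, normoxia, had neither oxygen nor injection. The labels give neither the species of the injected cells nor the strain, sex or litter of the pups. Every sample label gives P17 as the stage, whereas the protocol names P12 and P17 as days of death, and the design text of the series pairs injection at P5 with collection at P12. In any comparison of a P5 group with a group of another kind, injection day and collection day therefore cannot be told apart.

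Microglia settle in the retina before its vessels are complete, guide and prune growing capillaries, and take up dying cells. They live on signals through the CSF1 receptor, and in oxygen-induced retinopathy they are known to gather at the vascular tufts that form after the return to room air. Blood monocytes, perivascular macrophages and the macrophages of the vitreous express most of the same genes, so none of the 10 genes by itself names one of these cells. The genes cover several roles. Csf1r and Cx3cr1 code receptors for survival and position, and Trem2 and Tyrobp a lipid-sensing receptor and its signalling adaptor. Ctss and Lyz2 code a lysosomal and an antibacterial enzyme, Cd68 a glycoprotein of lysosome membranes, and Aif1 the actin-binding marker protein IBA1. Itgam (coding CD11b) and Ptprc (coding CD45) stand for surface proteins of leukocytes in general.

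Genes of this lineage share a transcription factor, PU.1, coded by Spi1, which binds purine-rich sites with a GGAA core. RefSeq (GRCm38.p6) windows of 300 bases, 250 before to 50 after the transcription start, were searched for 8 of the 10 genes. Tyrobp had no entry, and Csf1r was left out of the counts that follow, an omission not made in the shares over all windows. Ptprc had 2 windows and counts as a single gene, whereas those shares are per window. GAGGAA, searched on both strands, was in the windows of 6 of these 8 genes and in 28.3% of all 32851 windows. GGAAGT, which can overlap GAGGAA by their shared GGAA, was in 4 of the 8 genes and in 23.8% of all windows, and either motif was in 7 of the 8 genes and in 43.4% of all windows. Such a match is a description of letters and no evidence of binding. The windows of 3 genes are shown because these genes separated all OIR-model retinas from normoxia (Tyrobp, which did so too, is named only); capitals mark the matches on either strand, and TTCCTC and ACTTCC are the 2 motifs read on the other strand. The Aif1 window is chr17:35176003-35176302 on the minus strand, the Cd68 window chr11:69666121-69666420 on the minus strand and the Lyz2 window chr10:117282223-117282522 on the minus strand.
Aif1: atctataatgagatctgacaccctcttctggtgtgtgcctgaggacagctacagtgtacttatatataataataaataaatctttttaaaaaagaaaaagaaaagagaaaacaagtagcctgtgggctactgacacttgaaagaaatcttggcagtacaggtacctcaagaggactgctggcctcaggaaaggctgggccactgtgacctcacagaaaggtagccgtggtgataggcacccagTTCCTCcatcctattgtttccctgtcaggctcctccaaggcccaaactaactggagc
Cd68: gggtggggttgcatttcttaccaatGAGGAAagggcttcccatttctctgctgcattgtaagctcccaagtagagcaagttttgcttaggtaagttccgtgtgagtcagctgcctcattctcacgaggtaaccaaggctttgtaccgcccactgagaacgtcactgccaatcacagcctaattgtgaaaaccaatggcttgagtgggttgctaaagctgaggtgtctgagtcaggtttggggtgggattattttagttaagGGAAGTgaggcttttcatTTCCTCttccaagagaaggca
Lyz2: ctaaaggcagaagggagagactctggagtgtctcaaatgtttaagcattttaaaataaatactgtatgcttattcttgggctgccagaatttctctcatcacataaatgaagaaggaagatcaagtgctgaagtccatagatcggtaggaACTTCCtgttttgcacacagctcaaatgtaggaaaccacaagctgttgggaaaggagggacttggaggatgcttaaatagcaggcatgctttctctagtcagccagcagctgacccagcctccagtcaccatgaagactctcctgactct

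Values are the deposited log2 signals. Differences are given as log2 difference ± SE from limma with 1 mean per group over all 30 arrays, and a gene was called changed at a Benjamini-Hochberg adjusted p under 0.05 over 12393 genes. Arrays give no counts, so the number of arrays, 3 per group, limits the precision. The median signal of the arrays ran from 8.16 to 8.49, and a list of 10 rod photoreceptor genes averaged 12.96 to 13.31 on each array. Spiked-in hybridisation controls averaged 13.23 to 13.65 on the arrays of the P12-injected groups and 11.86 to 12.96 on all others. As a scale for genes that are not transcribed, Eif2s3y, which lies on the Y chromosome, read 3.84 to 4.83 on the 14 arrays that Xist marked as female, and Xist read 4.48 to 5.70 on the 16 others. All 30 values of Itgam, 5 of Ptprc and 1 of Cd68 lay at or below 5.70, and the other 7 genes lay above it on every array. Probe sets differ in brightness, so levels are compared between arrays and not between genes.

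1 array stood apart. P5 CD34 replicate 1 had the highest value of all 30 arrays for 9 of the 10 genes, Itgam being the exception. Its Lyz2 signal was 13.12, against 8.54 and 10.36 on the other two arrays of its group, and Cd68 was 10.38 on it, against 6.81 and 7.51. Tyrobp behaved likewise, at 12.27 against 9.19 and 10.10. The mean of the 10 genes was 10.15 on this array, against 7.79 and 8.55 on the other two, and over all 12393 genes 3.15% were more than 1 log2 unit above the mean of the other two arrays, against 9 of the 10. The same array had the lowest hybridisation control mean (11.86), close to those of P5 saline replicates 2 and 3 (11.92 and 12.03). Its lens list mean was 7.34, against 13.98 and 13.88 on the other two. Xist marked it as male and the other two as female. The part of these differences in its high microglia and macrophage signal was not tested, so the main results of the P5 CD34 group are also given without it.

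**Figure D1:**
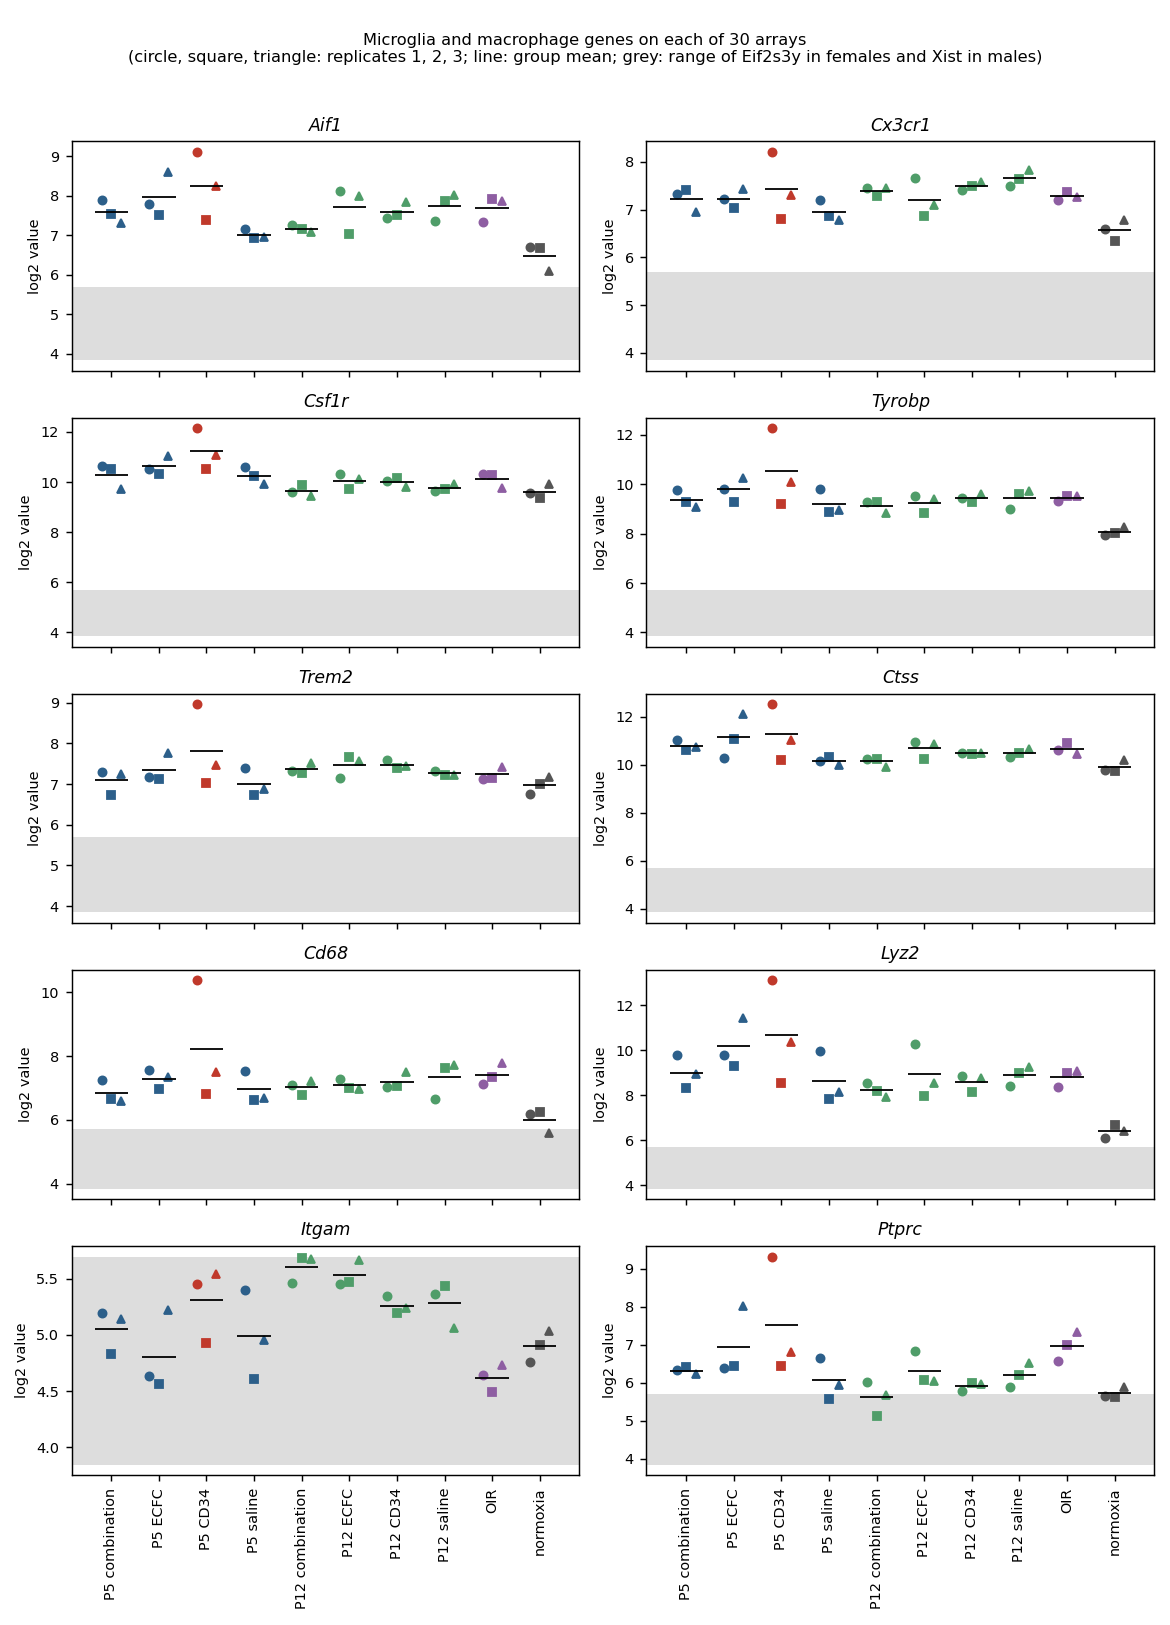
Deposited log2 signal of each of the 10 genes (1 panel each, own vertical axis) on the 30 arrays, by group. Circles, squares and triangles are replicates 1, 2 and 3, lines are group means, and the grey band spans the values of Eif2s3y in females and Xist in males (3.84 to 5.70). The first P5 CD34 array (red circle) is the highest point in 9 panels, and the 3 normoxia arrays lie below all others for Aif1, Tyrobp, Cd68 and Lyz2.

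Across the 10 groups, normoxia had the lowest mean for 8 of the 10 genes. P5 CD34 had the highest for 8, and without its replicate 1 for 1, Csf1r. Aif1 averaged 8.25 ± 0.87 in P5 CD34, 7.97 ± 0.56 in P5 ECFC, 7.75 ± 0.35 in P12 saline, 7.72 ± 0.60 in P12 ECFC, 7.71 ± 0.33 in untreated OIR, 7.61 ± 0.21 in P12 CD34, 7.58 ± 0.30 in P5 combination, 7.17 ± 0.093 in P12 combination, 7.02 ± 0.12 in P5 saline and 6.49 ± 0.34 in normoxia (SD, n = 3 each). From P5 CD34 down to P5 combination no step between neighbours exceeded the larger SD of the pair, and the steps below P5 combination, P12 combination and P5 saline did. Over all 10 genes only 14 of 90 such steps between neighbouring groups exceeded the larger SD.

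The step above normoxia was among these 14 for Aif1, Tyrobp, Cd68, Lyz2, Cx3cr1 and Ptprc. For Aif1, Tyrobp, Cd68 and Lyz2, all 27 arrays of the OIR model lay above all 3 normoxia arrays. Lyz2 ran from 7.84 (P5 saline replicate 2) to 13.12 on the OIR-model arrays, against 6.10 to 6.69 in normoxia. For Cx3cr1 26 of the 27 arrays did so, for Ctss 24, for Ptprc 23, for Trem2 18, for Itgam 18 and for Csf1r 17. The mean of the 10 genes was at least 7.47 on every OIR-model array and at most 7.14 in normoxia.

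**Figure D2:**
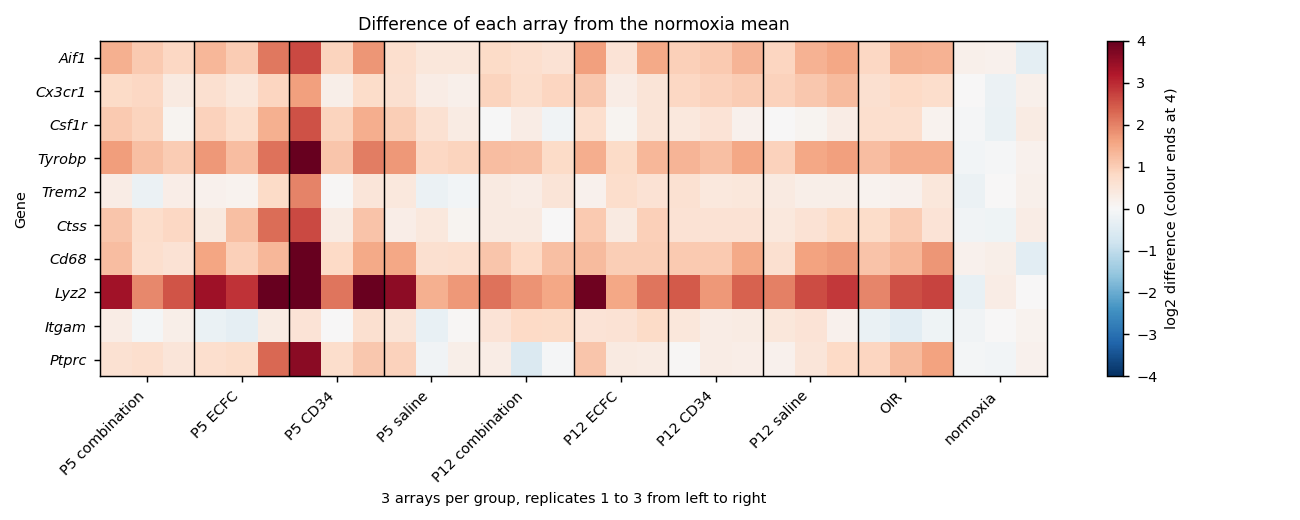
Difference of each array's log2 signal from the normoxia mean of the same gene, with genes in rows and the 30 arrays in columns (groups separated by lines). Red is above the normoxia mean, and the colour scale ends at 4, which Lyz2 exceeds on the first P5 CD34 array. Lyz2 is deep red in nearly all OIR-model columns, and Itgam and Trem2 are pale in most.

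The comparison of untreated OIR with normoxia asked how the model alone changed these genes. Aif1 rose, to 2.33-fold the normoxia level, and 8 others stood higher without passing. Itgam was 0.28 ± 0.18 lower within the range of untranscribed genes. In bulk retina, fewer cells of a type and less RNA per cell cannot be told apart, and the same holds for more. The members' median difference was 0.99, against -0.02 over all genes, and 1 of 10 was called, against 4.56% of all genes (3.59% called higher). At an unadjusted p under 0.05 there were 6 of 10, against 19.8%. In 7 of the 10 every untreated OIR array lay above every normoxia array, against 12.9% of all genes, and in 1 (Itgam) every array lay below, against 13.3%.

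Aif1, the IBA1 gene used to stain microglia, read 7.33, 7.93 and 7.87 in untreated OIR retinas and 6.70, 6.67 and 6.09 in normoxia retinas, a difference of 1.22 ± 0.34 (adjusted p = 0.0363). The groups did not overlap. The call was lost without OIR replicate 2 or 3, without normoxia replicate 3, after quantile normalization and with the hybridisation control mean in the model. Lyz2, the lysozyme gene of myeloid cells, had the largest difference of the 10, 2.41 ± 0.78 (5.31-fold, adjusted p = 0.0767), with 8.37, 8.97 and 9.10 in untreated OIR and 6.10, 6.69 and 6.43 in normoxia. The groups were well apart, while the SE rests on the spread shared over all 10 groups. Its near-identical copy Lyz1 could share signal with its probe set.

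Cd68, a glycoprotein of lysosome membranes, read 7.13, 7.33 and 7.78 in untreated OIR and 6.19, 6.25 and 5.58 in normoxia (1.41 ± 0.52, adjusted p = 0.13). Its lowest normoxia value lay in the range of untranscribed genes. Tyrobp, the adaptor DAP12 through which TREM2 signals, read 9.31, 9.51 and 9.52 in untreated OIR and 7.94, 8.01 and 8.25 in normoxia (1.38 ± 0.45, adjusted p = 0.0798). The arrays within each group lay close together, and the groups did not overlap. Ptprc, the CD45 phosphatase of all leukocytes, read 6.58, 6.98 and 7.32 in untreated OIR and 5.64, 5.62 and 5.89 in normoxia (1.24 ± 0.50, adjusted p = 0.161). Again the groups did not overlap, and normoxia replicates 1 and 2 lay within the range of untranscribed genes.

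Ctss, the lysosomal protease cathepsin S, read 10.64, 10.90 and 10.45 in untreated OIR and 9.77, 9.73 and 10.19 in normoxia (0.77 ± 0.39, adjusted p = 0.279). Cx3cr1, the receptor for the neuronal chemokine fractalkine, read 7.20, 7.37 and 7.27 in untreated OIR and 6.60, 6.34 and 6.79 in normoxia (0.70 ± 0.23, adjusted p = 0.0862). Neither gene's groups overlapped. Csf1r, the growth factor receptor on which microglia depend, differed by 0.50 ± 0.30 (adjusted p = 0.37) with overlapping arrays, and Trem2, the lipid receptor on phagocytes, by 0.25 ± 0.30 (adjusted p = 0.668), also overlapping. Csf1r and Trem2 thus had the smallest of the 9 positive differences and Lyz2 and Cd68 the largest, an order that was not tested.

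How many of the 10 passed depended on the arrays that set the spread. The fit shares 1 estimate of spread per gene over all 30 arrays, and P5 CD34 replicate 1 widened it for these genes: their median SD in the P5 CD34 group was 1.09, against 0.188 for all genes in that group. With that array left out of the shared fit, a setting chosen after the data were seen, 6 of the 10 passed in untreated OIR against normoxia. These were Aif1 (adjusted p = 0.0107), Tyrobp (0.00247), Cd68 (0.00298), Cx3cr1 (0.0149), Lyz2 (0.0149) and Ptprc (0.0241), with the same differences as above. A fit of only these 2 groups also called those 6. Counts over all genes moved between settings too, and their range over the alternatives is given in the last paragraph. The share of all genes called in either of these fits is not given. The 6 calls are therefore not read as particular to these genes.

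Genes around the 10 were counted from lists. Of 22 measured pan-myeloid genes 5 rose in untreated OIR and 0 fell, with a median difference of 0.80. The complement genes C1qc, which rose by 1.71 ± 0.43 (adjusted p = 0.019), and C1qb, which rose by 1.41 ± 0.38 (adjusted p = 0.030), were among them. The actin-bundling gene Lcp1 rose by 1.98 ± 0.27. Of 10 homeostatic microglia genes Sparc and Fcrls rose (median 0.07), while P2ry12 (-0.07 ± 0.34) and Tmem119 (0.17 ± 0.23), the genes most used to tell microglia from macrophages, did not pass. Of 19 phagocytic and disease-associated genes Axl rose, of 13 perivascular and tissue macrophage genes Stab1 rose, and of 10 myeloid transcription factors none did (Spi1 0.31 ± 0.20, adjusted p = 0.395). Among 15 ligands and partners of the 10 genes, the CD11b ligand Icam1 rose by 1.06 ± 0.24 and the CSF1R ligand Il34 by 0.60 ± 0.17 (adjusted p = 0.041), while Csf1 stood at 0.66 ± 0.30 (adjusted p = 0.214) and the CX3CR1 ligand Cx3cl1 at -0.26 ± 0.20. The Il34 values were low, at 6.25, 6.40 and 6.25 in untreated OIR and 5.78, 5.91 and 5.41 in normoxia.

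Lists of other cells give the setting. Of 13 monocyte and neutrophil genes, 14 T and NK cell genes, 7 B cell genes and 4 red blood cell genes, none passed in untreated OIR against normoxia, and the monocyte receptor gene Ccr2 read 5.06 to 5.75 in untreated OIR and 5.18 to 5.50 in normoxia. The monocyte and neutrophil list averaged 5.27 to 5.70 on the untreated OIR arrays and 5.21 to 5.49 on the normoxia arrays, at the level of untranscribed genes. Of 9 mast cell and platelet genes Kit rose, of 12 Muller glia genes 2 rose and 2 fell, and of 13 lens, 12 pigment epithelium and 10 rod genes 0 passed. Endothelial genes rose in 7 of 12 and cell cycle genes in 7 of 11 on the same arrays.

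Saline into the vitreous at P12 asked what the injection did in OIR. Set against untreated OIR, the 10 genes had a median difference of 0.01, against -0.03 for all genes, and 1 of 10 was called, against 21.3% of all genes. At an unadjusted p under 0.05 there was also 1, against 33.6%. That gene was Itgam (0.67 ± 0.18, adjusted p = 0.0115), at 5.37, 5.44 and 5.06 in P12 saline and 4.64, 4.49 and 4.73 in untreated OIR. All 6 values lay in the range of untranscribed genes. Hybridisation controls also differed between these groups, and with their mean in the model Itgam did not pass. The largest of the other differences was that of Ptprc, -0.75 ± 0.50 (adjusted p = 0.298). Median centring moved the median of all genes in this comparison to 0.09.

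After saline at P5, 8 of the 10 group means lay between those of untreated OIR and normoxia, Csf1r and Itgam lying above both. Against untreated OIR 0 of 10 passed in limma, where 8.69% of all genes did (3.81% higher and 4.88% lower), and at an unadjusted p under 0.05 again 0, against 24.2%. Aif1 was -0.69 ± 0.34 (adjusted p = 0.212) and Ptprc -0.90 ± 0.50 (adjusted p = 0.272). Against normoxia 0 of 10 passed in limma (8.1% of all genes, 3.91% higher and 4.2% lower), with 3 at an unadjusted p under 0.05 (22.8%). All 10 differences were positive as deposited, Trem2 turning negative after quantile normalization or median centring, and in 5 of 10 the P5 saline arrays all lay above those of normoxia (13.5% of all genes). Lyz2 read 9.97, 7.84 and 8.15 in P5 saline and 6.10, 6.69 and 6.43 in normoxia (2.25 ± 0.78, adjusted p = 0.0746), and Tyrobp 9.79, 8.88 and 8.95, against 7.94, 8.01 and 8.25 (1.14 ± 0.45, adjusted p = 0.123). Both genes separated the groups, and P5 saline replicate 1 was the highest of its group in both. Without P5 CD34 replicate 1 in the shared fit, Tyrobp (adjusted p = 0.00971), Lyz2 (0.0186) and Cd68 (0.0362) passed. The count over all genes in P5 saline against normoxia moved across the alternatives as well, as the last paragraph shows. The share of all genes called in that 1 fit is not given, so these 3 calls are not read as particular to these genes. With the replicate number as a block Lyz2 alone passed. Other tissue lists moved in both comparisons. Against untreated OIR 13 of 13 lens and 6 of 12 pigment epithelium genes rose and 7 of 12 endothelial and 4 of 11 cell cycle genes fell. Against normoxia 12 of 13 lens, 3 of 12 pigment epithelium, 2 of 12 endothelial and 4 of 11 cell cycle genes rose. Their part in the values of the 10 genes was not tested.

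Between the saline groups, 1 of 10 was called, and it was lower, against 27.7% of all genes (8.57% called lower). At an unadjusted p under 0.05 there were 2, Cx3cr1 and Aif1, against 37.7%. Cx3cr1 fell to 7.21, 6.87 and 6.78 in P5 saline, against 7.50, 7.64 and 7.83 in P12 saline (-0.70 ± 0.23, adjusted p = 0.0271). Its second probe set differed by -0.37 ± 0.22 (adjusted p = 0.234). The Cx3cr1 call was lost without P5 saline replicate 2 or 3, without P12 saline replicate 2 or 3, and with the lens list mean in the model. On the same arrays the 13 lens genes all rose and 6 of 12 pigment epithelium genes rose, with lens list means of 10.60 to 13.66 in P5 saline and 6.03 to 6.25 in P12 saline. Their part in the result was not tested.

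The high group means of P5 CD34 came with 1 array far above the other two. Compared with P5 saline, all 10 differences were positive, with a median of 1.16 against -0.03 for all genes. Aif1 and Csf1r rose and were called, 2 of 10 against 8.46% of all genes (3.07% called higher). At an unadjusted p under 0.05 there were 9 of 10, against 22.6%. Only Aif1 had no overlap between the groups, against 7.42% of all genes. The size of these differences depended on P5 CD34 replicate 1. Without it every difference stayed positive, from 0.10 (Cx3cr1) to 0.80 (Lyz2), and the Aif1 arrays still did not overlap. The calls were lost without that array, and also without P5 saline replicate 2 or 3.

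Aif1 read 9.12, 7.38 and 8.26 in P5 CD34 and 7.16, 6.95 and 6.96 in P5 saline (1.23 ± 0.34, 2.35-fold, adjusted p = 0.0236). Csf1r read 12.15, 10.52 and 11.07 in P5 CD34 and 10.61, 10.24 and 9.93 in P5 saline (0.99 ± 0.30, 1.98-fold, adjusted p = 0.044). The Csf1r groups overlapped. Its other probe sets differed by 0.86 ± 0.29 and 0.73 ± 0.27 in the same direction, at adjusted p = 0.0625 and 0.0928 over all probe sets.

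Lyz2 read 13.12, 8.54 and 10.36 in P5 CD34 and 9.97, 7.84 and 8.15 in P5 saline (2.02 ± 0.78, adjusted p = 0.11). Ptprc read 9.32, 6.43 and 6.81 in P5 CD34 and 6.65, 5.58 and 5.95 in P5 saline (1.46 ± 0.50, adjusted p = 0.0682). In both genes 1 array of each group, replicate 1, was well above the other two, and the groups overlapped. Tyrobp read 12.27, 9.19 and 10.10 in P5 CD34 and 9.79, 8.88 and 8.95 in P5 saline (1.31 ± 0.45, adjusted p = 0.0714). Cd68 read 10.38, 6.81 and 7.51 in P5 CD34 and 7.55, 6.63 and 6.68 in P5 saline (1.28 ± 0.52, adjusted p = 0.139). The second P5 CD34 array of Cd68 was thus lower than the first P5 saline array. Ctss differed by 1.10 ± 0.39 (adjusted p = 0.0824), Trem2 by 0.81 ± 0.30 (0.098), Cx3cr1 by 0.49 ± 0.23 (0.221) and Itgam by 0.32 ± 0.18 (0.319), all with overlapping arrays.

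Without P5 CD34 replicate 1, 0 of 10 passed in limma and the median difference was 0.45. Of all 12393 genes, 304 were called higher and 378 lower in that fit. Aif1 then stood at 0.80 (adjusted p = 0.161), Csf1r at 0.53 (adjusted p = 0.282) and Lyz2 at 0.80 (adjusted p = 0.577). Without replicate 2 instead, all but Itgam passed, 9 of 10, with Lyz2 at 3.09. Without replicate 3 only Ptprc did. Of the P5 saline arrays, leaving out replicate 2 or 3 left 0 passing and leaving out replicate 1 left 5. A fit of only these 2 groups called 0. The count over all genes moved across the alternatives as well, with the range given in the last paragraph. Except without P5 CD34 replicate 1, the share of all genes called in each of these fits is not given. The counts among the 10 are therefore not read as particular to them.

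**Figure D3:**
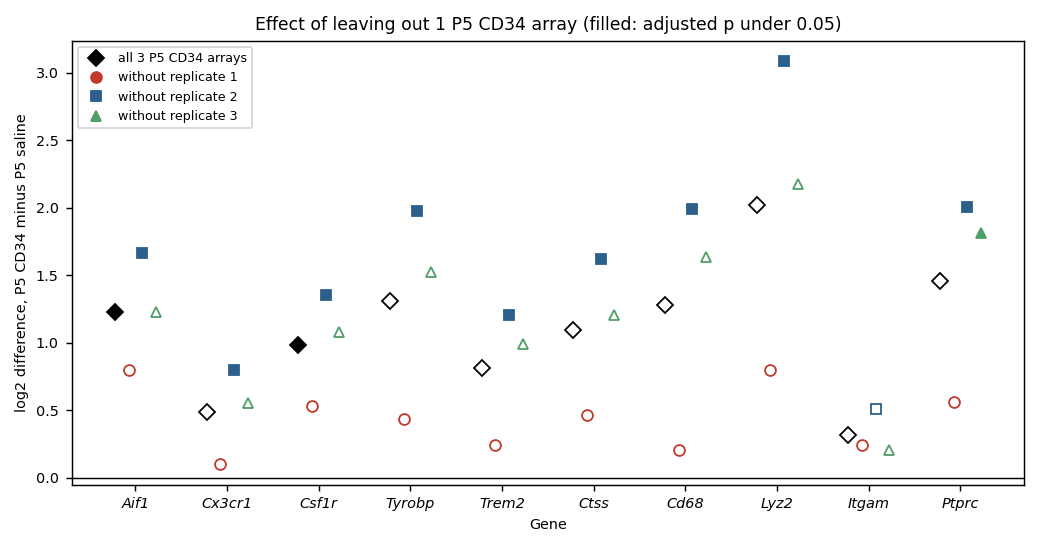
Log2 difference of P5 CD34 minus P5 saline for each of the 10 genes with all 3 P5 CD34 arrays (diamonds) and without replicate 1, 2 or 3 (circles, squares, triangles); filled symbols passed at an adjusted p under 0.05. Leaving out replicate 1 gives the lowest value for every gene but Itgam and leaves no filled circle, while 9 squares are filled.

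Other myeloid genes followed the same arrays. Of 22 pan-myeloid genes 3 rose in P5 CD34 over P5 saline (Cyba, C1qb and Arhgdib), and 0 rose without replicate 1. Of 19 phagocytic and disease-associated genes 4 rose, led by Gpnmb, a glycoprotein of lysosomes and melanosomes, at 12.63, 10.52 and 10.28 in P5 CD34 and 7.66, 9.45 and 7.58 in P5 saline (2.91 ± 0.53, adjusted p = 0.003). Its groups did not overlap. Ctsz rose by 0.89 ± 0.21 and Ch25h, the cholesterol 25-hydroxylase gene, by 1.23 ± 0.30. Of 13 perivascular and tissue macrophage genes Pf4 (1.70 ± 0.47), Folr2 (1.44 ± 0.42) and Stab1 rose, and Lyve1, shared with lymphatic endothelium, fell by 0.79. Of 10 homeostatic microglia genes Olfml3, Cd164 and Tgfbr1 rose, while P2ry12 (-0.20 ± 0.34) and Tmem119 (0.31 ± 0.23) did not pass. The transcription factor gene Cebpb rose by 1.20 ± 0.35, and Spi1 stood at 0.42 ± 0.20 (adjusted p = 0.201). Among the ligands, Cx3cl1 fell by 0.85 (adjusted p = 0.011), Icam1 rose by 0.94 ± 0.24, and Csf1 stood at 0.80 ± 0.30 (adjusted p = 0.098). Without replicate 1, Gpnmb rose (2.16, adjusted p = 0.0122) and Igf1 fell among the phagocytic genes. Folr2 rose by 0.47 and Lyve1 fell by 0.66 among the perivascular genes, Olfml3 and Cd164 rose among the homeostatic genes, and Sall1 was the only transcription factor gene that rose. Of the 15 ligands and partners 0 passed in limma, with Cx3cl1 at -0.62 (adjusted p = 0.0732) and Icam1 at 0.59 (adjusted p = 0.107).

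Gpnmb is also a gene of pigmented cells, and 4 of 12 pigment epithelium genes rose in this comparison (Tyr, Dct, Tyrp1 and Pmel), and the same 4 rose without replicate 1. That list averaged 9.97 to 10.37 in P5 CD34 and 8.35 to 9.96 in P5 saline, and its part in the Gpnmb result was not tested. In the remaining lists 3 cell cycle genes and Plvap rose and Prf1 fell, and no gene of the monocyte and neutrophil, B cell, mast cell and platelet, red blood cell, lens, rod or Muller glia lists passed. Without replicate 1 no gene of these lists passed in limma but the lens gene Gja3, which rose, and neither did the cell cycle genes, Plvap or Prf1. The monocyte and neutrophil list averaged 5.62 on P5 CD34 replicate 1, against 5.46 and 6.004 on the other two. On the same array 19 of 22 pan-myeloid, 13 of 19 phagocytic, 8 of 13 perivascular and 4 of 10 homeostatic genes were more than 1 unit above the mean of the other two, against 3.15% of all genes. C1qc read 11.08 there, against 8.08 and 9.47, and Mrc1, a macrophage mannose receptor gene, 9.19 against 7.25 and 7.39. P2ry12 read 6.45, against 5.85 and 5.94.

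**Figure D4:**
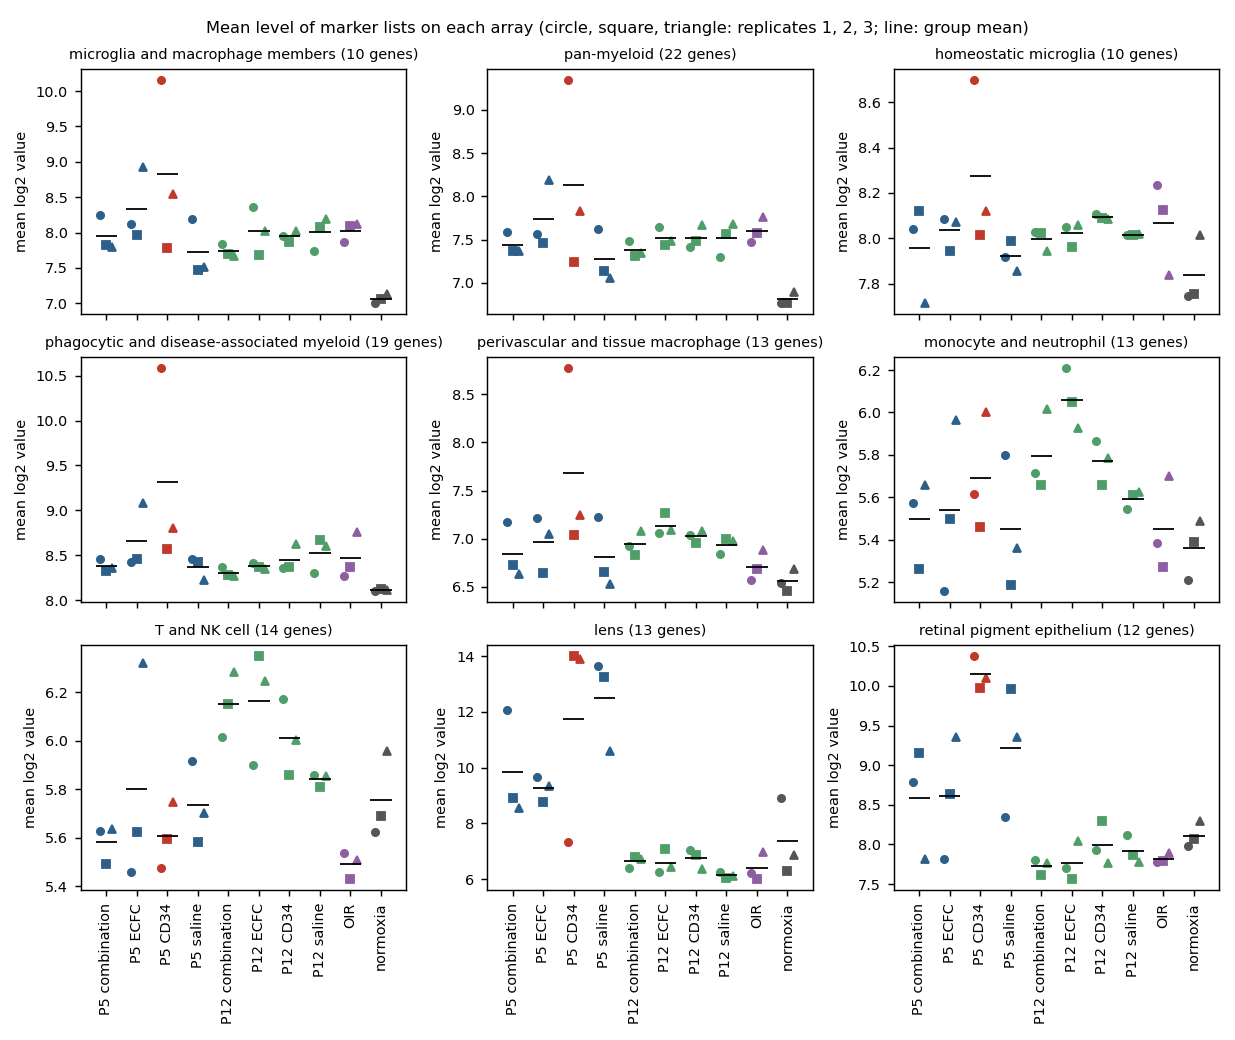
Mean log2 signal of the measured genes of each list on each array, by group (symbols as replicates 1, 2 and 3, lines as group means; each panel has its own vertical axis). The first P5 CD34 array is the highest of all 30 in the first 5 panels (all myeloid lists but that of monocytes and neutrophils), and is the only P5 CD34 array with a low lens mean (7.34, against 13.98 and 13.88).

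ECFC at P5 left the 10 genes higher than P5 saline in 9 cases, with a median difference of 0.48, but 0 of 10 passed in limma, as did 0% of all genes. At an unadjusted p under 0.05 there were 2, against 6.29%. These were Aif1, at 7.80, 7.51 and 8.60 in P5 ECFC and 7.16, 6.95 and 6.96 in P5 saline (0.95 ± 0.34, adjusted p = 0.615), and Ctss, at 10.27, 11.09 and 12.13 in P5 ECFC and 10.17, 10.33 and 9.9985 in P5 saline (0.998 ± 0.39, adjusted p = 0.678). The Aif1 arrays did not overlap, as in 3.49% of all genes. P5 ECFC replicate 3 had the second highest value of all 30 arrays for Aif1, Tyrobp, Trem2, Ctss, Lyz2 and Ptprc. Lyz2 read 9.80, 9.31 and 11.43 in P5 ECFC (1.53 ± 0.78 over P5 saline, adjusted p = 0.817).

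The combination at P5 was closer to saline. Its median difference from P5 saline was 0.21, and 0 of 10 passed in limma, as did 0% of all genes, with 0 at an unadjusted p under 0.05 (7.89% of all genes). Aif1 stood at 0.56 ± 0.34 (adjusted p = 0.72), Ctss at 0.62 ± 0.39 (0.74) and Csf1r at 0.03 ± 0.30 (0.99). In Aif1 and Ctss all P5 combination arrays lay above all P5 saline arrays, 2 of 10 against 4.79% of all genes.

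The treatments were also set against each other, with the P5 CD34 arrays shared by both of these comparisons and by the one with saline. In P5 combination all 10 genes were lower than in P5 CD34, with a median of -0.84. None of the 10 passed in limma (7.83% of all genes did), and 6 had an unadjusted p under 0.05 (20.1%). Csf1r read 10.65, 10.52 and 9.71 in P5 combination and 12.15, 10.52 and 11.07 in P5 CD34 (-0.95 ± 0.30, adjusted p = 0.0549), and it passed after quantile normalization. In Ptprc all P5 combination arrays lay below all P5 CD34 arrays, as in 9.99% of all genes (-1.20 ± 0.50, adjusted p = 0.155). In P5 ECFC all 10 genes were lower than in P5 CD34, with a median of -0.50, 0 of 10 called in limma (7.08% of all genes) and 1 at an unadjusted p under 0.05 (18.2%). Without P5 CD34 replicate 1, 0 of 10 passed in either comparison, with median differences of -0.26 for the combination and 0.14 for ECFC. Of all 12393 genes, 243 were called higher and 398 lower there for the combination, and 181 higher and 352 lower for ECFC. Gpnmb fell in both, with a difference of -3.69 ± 0.53 in P5 combination and -2.68 ± 0.53 in P5 ECFC, and without P5 CD34 replicate 1 of -2.95 (adjusted p = 0.000452) and -1.94 (adjusted p = 0.023). Pigment epithelium genes fell in the same comparisons, 6 of 12 in P5 combination and 5 of 12 in P5 ECFC, and without that array 5 and 4. Lens genes fell in 0 of 13 and 1 of 13, and without that array in 10 and 11. Their part in the Gpnmb result was not tested.

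The cell treatments at P12 gave no calls among the 10 genes. Against P12 saline limma called 0 of 10 in P12 combination (0% of all genes), 0 in P12 ECFC (0.0161%) and 0 in P12 CD34 (0%), and 0 of 10 had an unadjusted p under 0.05 in each of the 3 (9.89, 16.1 and 5.19% of all genes). Median differences were -0.31, 0.08 and -0.08. Aif1 read 7.26, 7.15 and 7.08 in P12 combination and 7.36, 7.88 and 8.03 in P12 saline (-0.59 ± 0.34, adjusted p = 0.526). All its P12 combination arrays lay below those of P12 saline, as they did in 3 of 10 genes, against 10.2% of all genes. In P12 CD34 0 of 10 did so, against 6.73%. Lyz2 read 8.87, 8.15 and 8.78 in P12 CD34 and 8.42, 9.01 and 9.24 in P12 saline (-0.29 ± 0.78, adjusted p = 0.985). P12 combination was set against P12 CD34 too, and limma called 0 of 10 there (0% of all genes), with 0 at an unadjusted p under 0.05 (4.53%) and a median of -0.30.

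Whether the effect of CD34+ cells differed between injection days was tested directly as a difference of differences. For CD34+ cells the median of the 10 genes was 1.21 (all genes -0.08), with Aif1 at 1.38 ± 0.47 (adjusted p = 0.125), Ptprc at 1.75 ± 0.70 (0.194) and Lyz2 at 2.31 ± 1.10 (0.282). Limma called 0 of 10 (1.9% of all genes), and 4 had an unadjusted p under 0.05 (17%). Without P5 CD34 replicate 1 the median was 0.39, with Aif1 at 0.95 (adjusted p = 0.312), Ptprc at 0.85 (0.46) and Lyz2 at 1.09 (0.645), and limma again called 0 of 10. For ECFC 0 of 10 passed in limma (0.0323%), with 2 at an unadjusted p under 0.05 (11.9%), and for the combination 0 (0%), with 1 (11.5%). A difference between P5 and P12 injection was therefore not shown for any of the 10 genes.

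**Figure D5:**
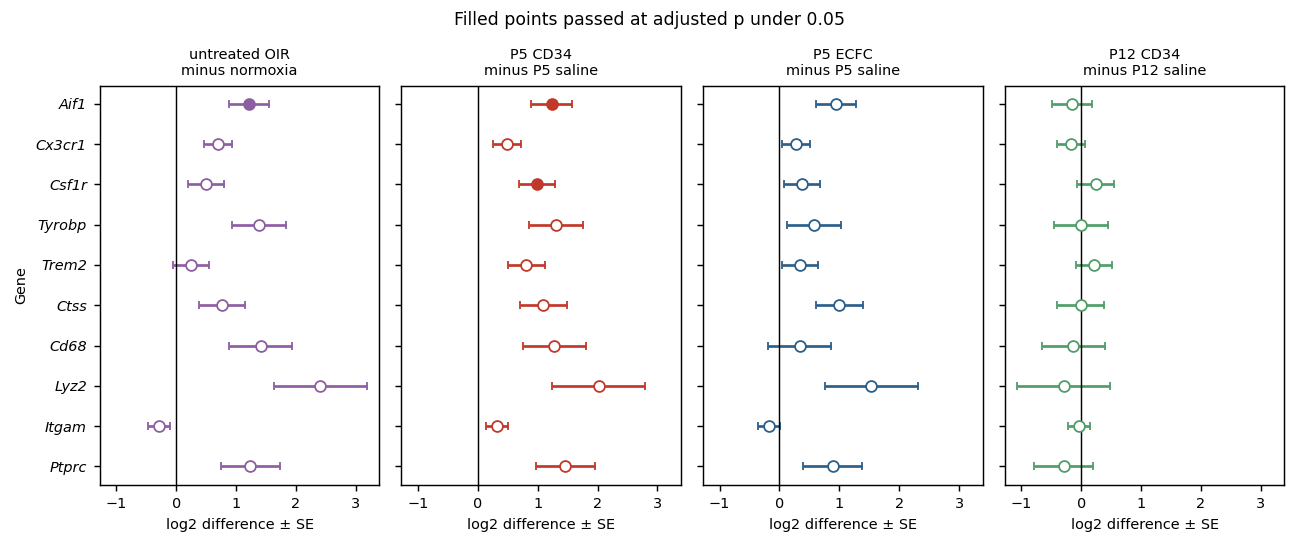
Log2 difference ± SE of the 10 genes in untreated OIR minus normoxia, P5 CD34 minus P5 saline, P5 ECFC minus P5 saline and P12 CD34 minus P12 saline (limma over all 30 arrays; filled points passed at an adjusted p under 0.05). Aif1 in the first panel and Aif1 and Csf1r in the second are filled, and the P12 CD34 points lie around 0.

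The 10 genes varied together from array to array. Over the 30 arrays the Pearson correlation of a pair had a median of 0.75 and ran from -0.03 (Itgam with Ptprc) to 0.95 (Tyrobp with Lyz2). Without P5 CD34 replicate 1 the median was 0.55. With group means subtracted it was 0.75, on all 30 arrays and so with that array included. Itgam was the loosest member (median 0.22 with the other 9) and Lyz2 the tightest (0.84). These points share labelling, scaling and tissue composition, and the values are a description. Of the genes outside the 10, those most like their mean profile over the 30 arrays were Cd53 (r = 0.98), a tetraspanin of leukocytes, Mpeg1 (0.97), a pore-forming protein of macrophages, Laptm5 (0.96), a lysosomal membrane protein of blood cells, and the Fc receptor genes Fcgr3 (0.95) and Fcer1g (0.95). With group means subtracted they were C1qc (0.97), Laptm5 (0.96), Ly86 (0.96), Cd53 (0.96) and Mpeg1 (0.96). Without P5 CD34 replicate 1 and with group means kept, they were Cd53 (0.958), Mpeg1 (0.942), Laptm5 (0.941), Lyz1 (0.916) and Ly86 (0.915).

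Over the 30 arrays, P5 CD34 replicate 1 included, probe sets of the same gene varied together for Csf1r and Cx3cr1 and not for Trem2. The Csf1r probe set used here correlated with the other two at r = 0.96 and 0.72 over the 30 arrays, and those of Cx3cr1 with each other at 0.83. In untreated OIR and normoxia, that Csf1r probe set averaged 10.12 and 9.62, the next 7.97 and 7.52, and the dimmest 7.13 and 7.03. For Trem2 the correlation was 0.28. Its dimmer probe set read 5.54 on P5 CD34 replicate 1, where the brighter one read 8.96, and in untreated OIR against normoxia it differed by -0.40 ± 0.24 (adjusted p = 0.361), against 0.25 ± 0.30 for the brighter. The values of Trem2 above are those of the brighter probe set.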

How the data were processed

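Total RNA of 30 retinas (1 per pup, 3 pups in each of 10 groups) was amplified, biotin-labelled and hybridised to expression arrays, per the labels' protocols. For every array the authors deposited log2 values, 1 for each probe set, which were used here without further scaling. Partek (no version) is named in the submitters' processing notes; which summarisation and normalization it applied is not given in the sources used. Of 22690 probe sets 64 were controls, 20380 had 1 gene symbol, 691 had several and 1555 none. For each gene the probe set of highest mean over the arrays was kept, which left 12393 genes. No 2 arrays were identical. Arrays give no counts, so precision is set by the 3 arrays per group.

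Tests used limma 3.58.1 under R 4.3.3, with a mean for every group and two-sided moderated statistics (eBayes). For each of 17 contrasts p-values were adjusted (Benjamini-Hochberg) across all 12393 genes, and a gene was called at an adjusted p under 0.05. The steps were tested on simulated data. Replicate numbers did not pair arrays: the correlation of residuals at equal number ran from -0.453 to 0.445 over 14 comparisons, and 0 comparisons had all pairs over 0.1. The 10 genes and the 17 other gene lists, written from textbook knowledge, were chosen with earlier results of these data known. All 10 genes are named in each comparison or summarised with their count. From each list up to 3 passing genes of smallest p are named, with C1qa, C1qb, C1qc, Gpnmb, P2ry12, Tmem119, Mrc1, Ccr2, Csf1, Il34, Cx3cl1, Spi1 and Fcer1g free to be named whatever their values. Likeness to the 10 genes is the Pearson correlation with the mean of their standardised values. Genes named from the list counts beyond this rule (members of short lists of calls, Igf1, Sall1, and Tyr, Dct, Tyrp1, Pmel, Plvap and Prf1) were chosen after their values were seen. Alternatives changed the scaling (quantile, median centring), the features (all probe sets, or without the dimmest 30% of genes), the variance model (trend and robust eBayes, weights per array), the terms (a replicate block; as covariate Xist, the mean of 18 hybridisation control probe sets, or the mean of the lens list) and the arrays (only the groups compared, or each array left out in turn). The fit of 29 arrays without P5 CD34 replicate 1, and the ranks of the 10 genes and the list genes without it, were added after the data were seen.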

Additional observations from a re-analysis of the deposited data

Results flagged for a closer look

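The effect of CD34+ cells on Gpnmb, a glycoprotein gene of lysosomes and melanosomes, differed between injection days with all arrays and not without P5 CD34 replicate 1. P5 CD34 arrays read 12.63, 10.52 and 10.28 and P5 saline arrays 7.66, 9.45 and 7.58, while P12 CD34 arrays read 7.07, 7.22 and 7.15 and P12 saline arrays 7.17, 7.25 and 7.35. The difference of the 2 effects was 3.02 ± 0.75 (limma adjusted p = 0.0413), higher at P5. Without P5 CD34 replicate 1 it was 2.27 and did not pass (adjusted p = 0.0904). It was singled out because the test of the difference itself passed. The pigment epithelium list averaged 9.97 to 10.37 in P5 CD34 and 8.35 to 9.96 in P5 saline, and its part in this result was not tested. Groups of 3 arrays are too small for a formal search for single arrays far from their group. P5 CD34 replicate 1 was singled out by its values, after the data were seen.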

How the results depend on the processing

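The count of the 10 genes called was as reported in all 17 comparisons with all probe sets, median centring, and trend and robust settings, and no called difference changed sign. In untreated OIR against normoxia (1 as reported) it was 0 after quantile normalization and with the hybridisation control mean as covariate, 3 with Xist, 7 with array weights, and 6 both in the fit of only the groups compared and in the fit of 29 arrays. In P5 CD34 against P5 saline (2) it was 1 with the lens list mean, 6 with the hybridisation control mean, 7 with Xist, 8 with array weights and 0 with only the groups compared. In P12 saline against untreated OIR (1) it was 0 with the hybridisation control mean, 2 with array weights and 3 with only the groups compared. Without dim genes it was 0 as well, but that setting removed Itgam, the gene called here, and Ptprc before the test. In P5 saline against P12 saline (1) it was 0 with the lens list mean, 2 with the hybridisation control mean and with only the groups compared, and 3 with array weights. P5 saline against normoxia (0) gave 2 with array weights, 3 with the lens list mean and in the fit of 29 arrays, and P5 saline against untreated OIR (0) gave 3 with array weights. P5 combination against P5 CD34 (0) gave 1 after quantile normalization and without dim genes and 5 with the lens list mean, and P5 ECFC against P5 CD34 (0) gave 1 after quantile normalization, with array weights, with the lens list mean and with the hybridisation control mean. P12 ECFC against P12 saline (0) gave 2 with array weights. The differences between injection days (0 each) gave 2, 5 and 2 with array weights for ECFC, CD34 and the combination, and 1 for CD34 with the hybridisation control mean and with Xist. The count over all genes also changed markedly, in 15 of the 17 comparisons with array weights and in 10 with only the groups compared. It did so in 9 with the hybridisation control mean, 6 with the lens list mean, 4 after quantile normalization and 3 with Xist. With all probe sets, a setting that tests more features, it did so in 12 comparisons, while the count of the 10 genes moved in 0. Whether the shifts among the 10 genes differed from those over all genes was not tested. Their cause was not tested either. With the replicate block, P5 saline against normoxia gave 1 (Lyz2) and P5 combination against P5 CD34 gave 1 (Csf1r), and it changed no other count; the numbers do not pair the arrays.

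Leaving out each array in turn gave 0 to 1 in untreated OIR against normoxia, 0 to 1 in P12 saline against untreated OIR, 0 to 2 in P5 saline against P12 saline, 0 to 9 in P5 CD34 against P5 saline, 0 to 7 in P5 combination against P5 CD34, 0 to 4 in P5 ECFC against P5 CD34 and 0 to 4 in the CD34 difference between days, and 0 in the other comparisons. The counts over all genes moved as well: over the alternatives, 565 genes in untreated OIR against normoxia became 242 to 935, 1049 in P5 CD34 against P5 saline 0 to 2270, 1004 in P5 saline against normoxia 4 to 2041, and 2642 in P12 saline against untreated OIR 1661 to 5157. Signal near that of untranscribed genes limits Itgam on all arrays and Ptprc on 5.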
